A study of Homo sapiens with 6 samples.

Results

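The enzymes that make serine and pass its carbon into the folate cycle were examined in HL60 cells after *akirin2* KO. They are 9 genes, found by name in a deposited table of 17499 genes. PHGDH, PSAT1 and PSPH make serine, SHMT2, MTHFD2 and MTHFD1L form the mitochondrial arm of the folate cycle, SHMT1 and MTHFD1 form its cytosolic arm, and TYMS makes thymidylate. All 9 genes were present in the table and passed the minimum of 10 normalized counts on average.

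HL60 cells, an established line from a human promyelocytic leukemia, serve as a model of neutrophil precursors. The *akirin2* KO cells had received a guide RNA against *akirin2* in complex with Cas9, and the WT cells had received the SpCas9 nuclease with no guide. Both were grown in RPMI medium with fetal bovine serum, and RNA of 3 biological replicates of each was sequenced. The edited cells were used as a pool without clonal expansion, so that KO denotes a mixture that also holds cells without a disrupted gene. Each group came from 1 pool, and whether its biological replicates were separate cultures was not stated, and the p-values here cover only the spread among the libraries sequenced.

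Akirin2 is a nuclear protein that acts on transcription through partners such as chromatin remodelers. Cells build serine from an intermediate of glycolysis in a chain of PHGDH, PSAT1 and PSPH, and the SHMT enzymes then split serine into glycine and a carbon unit carried by tetrahydrofolate. In proliferating cells the mitochondrial arm usually oxidizes that unit and releases it as formate, and the cytosolic arm takes formate up again for purines, thymidylate and methionine. Genes of serine synthesis and of the mitochondrial arm are known targets of ATF4, the transcription factor of the amino acid and stress response.

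Of the 9 genes, 6 fell in KO cells, 2 rose and 1 did not pass the test. The 6 that fell were the 3 genes of serine synthesis and the 3 of the mitochondrial arm, and the 2 that rose were the cytosolic SHMT1 and MTHFD1. The test was limma on log2(normalized count + 1), with an adjusted p under 0.05 taken as a call. Calls were frequent in these libraries, with 60.6% of 17425 genes called, 30.3% higher and 30.3% lower in KO, so that 8 calls of 9 have to be read against that share. Falls of more than 1 on the log2 scale were less frequent, at 8.37% of all genes, and 4 of the 9 enzymes had one. The median log2 fold change, KO/WT, was -0.73 over the 9 enzymes and -0.01 over all genes tested. No KO library reached into the range of the WT libraries in 8 of the 9 genes, which held for 65.2% of all genes.

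Stretches near the start sites are given for the genes whose promoters carried one of 3 searched motifs. Sequences are from RefSeq (GRCh38.p14), whose promoter table holds 7 of the 9 genes, from 250 bases before to 50 after each start site. PSPH and SHMT2 are not among them. The motifs were the CCAAT box (CCAAT), the amino acid response element bound by ATF4 with its partners (TGATGNAAN) and the E-box bound by MYC and related factors (CACGTG), each on both strands and with no overlap between the motifs shown. Capitals mark the motif.
PHGDH, chr1:119711848-119711877, plus strand: tttgagtatttccgtCCAATcaaaaggaga
PSAT1, chr9:78297002-78297087, plus strand: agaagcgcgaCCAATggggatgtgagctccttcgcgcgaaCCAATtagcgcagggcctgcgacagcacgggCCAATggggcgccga
MTHFD2, chr2:74198526-74198555, plus strand: ggcatgcggcagggaCCAATgggtggcgga
SHMT1, chr17:18363612-18363641, minus strand: gccgctgcgccgcagCCAATagcgcgggtg
MTHFD1L, chr6:150866347-150866376, plus strand: ccgccggctcTGATGCAATcgcgccgggcg
MTHFD1, chr14:64388323-64388352, plus strand: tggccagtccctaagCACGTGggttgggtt
The PSAT1 promoter held 3 CCAAT boxes within the 86 bases shown. CCAAT was present in 6 of the 7 genes, all but TYMS, and in 39.7% of the 27305 genes of the table. The amino acid response element was found in 1 of the 7 genes, MTHFD1L, and in 4.45% of all genes. The E-box was found in MTHFD1 and MTHFD1L, 2 of the 7, and in 8.78% of all genes. MTHFD1L has 4 start sites in the table, and the element shown begins 129 bases before one of them, 90 bases before another and downstream of a further one, at its base 25. CCAAT boxes were present in genes that fell (PHGDH, PSAT1, MTHFD2, MTHFD1L) and in both that rose (SHMT1, MTHFD1), and a match is a description of the letters and not of a bound factor.

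PHGDH (ENSG00000092621, chr1:119648411-119744226 on the plus strand, GRCh38) encodes phosphoglycerate dehydrogenase, which commits 3-phosphoglycerate to serine. It had 4832, 4686 and 4864 normalized counts in KO1, KO2 and KO3, against 15780, 17337 and 16339 in WT1, WT2 and WT3. Every KO library lay far below every WT library, and the means were 4794 ± 94.7 in KO and 16485 ± 789 in WT (SD, n = 3 each). The log2 fold change was -1.78 (SE 0.044, 95% confidence interval -1.87 to -1.69, adjusted p = 6.1e-17, limma), a 3.44-fold lower level in KO cells. In bulk RNA, fewer cells of a type and less RNA per cell cannot be told apart, and this holds for each gene described.

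PSAT1 (chr9:78297143-78330093, plus strand) encodes phosphoserine aminotransferase, which takes the amino group of glutamate for the next step. Its normalized counts were 2988, 3093 and 3124 in KO1, KO2 and KO3, and 9042, 8597 and 8490 in WT1, WT2 and WT3. The groups were again well separated, with means of 3068 ± 71.5 in KO and 8710 ± 293 in WT (SD, n = 3 each). The log2 fold change was -1.50 (SE 0.044, interval -1.60 to -1.41, adjusted p = 6.8e-16, limma), or 2.84-fold lower in KO.

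PSPH (chr7:56011051-56051604, minus strand), the phosphatase that releases serine, fell less than the other enzymes of the chain. The KO libraries had 546, 564 and 602 normalized counts and the WT libraries 949, 989 and 903. Means were 570 ± 28.5 in KO and 947 ± 43.3 in WT (SD, n = 3 each), and the log2 fold change was -0.73 (SE 0.066, interval -0.87 to -0.59, adjusted p = 1.3e-08, limma). Its interval did not meet those of PHGDH and PSAT1. Summed over the chain, the normalized counts were 8344 to 8590 in KO and 25732 to 26923 in WT.

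**Figure D1:**
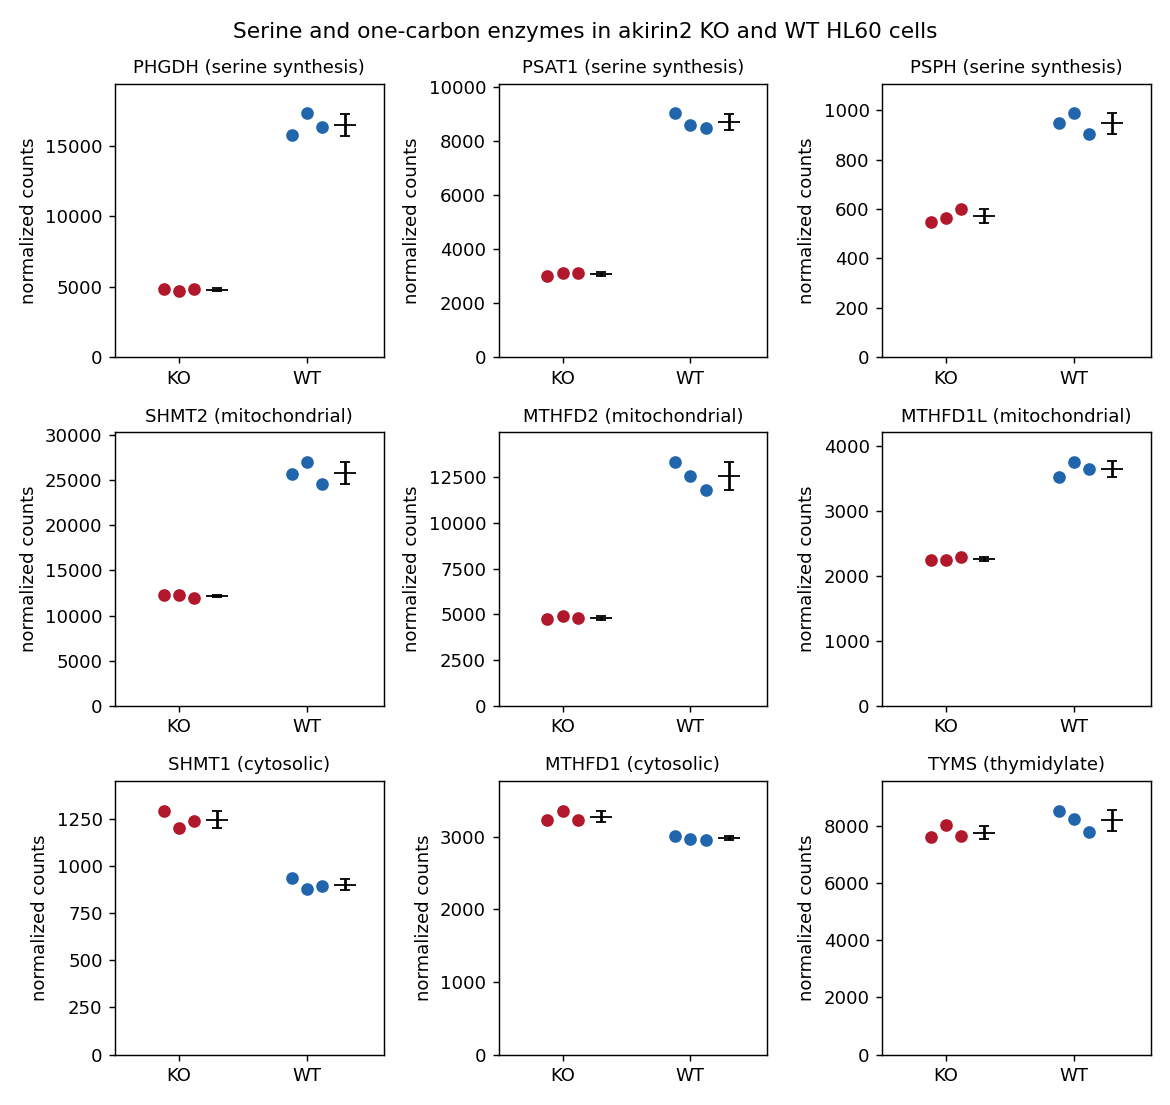
Normalized counts of the 9 enzyme genes, with KO1 to KO3 in red left of WT1 to WT3 in blue, and the group mean with its SD as a bar beside the points. All y axes start at 0. KO points lie below WT points in the serine synthesis and mitochondrial panels, above them for SHMT1 and MTHFD1, and overlap them for TYMS.

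In the mitochondrial arm, SHMT2 (chr12:57229327-57234935, plus strand) encodes the hydroxymethyltransferase that splits serine in the organelle. It had 12255, 12235 and 11988 normalized counts in KO1, KO2 and KO3, against 25724, 27028 and 24588 in WT1, WT2 and WT3. The KO libraries were within a narrow band, at 12159 ± 149, and the WT libraries averaged 25780 ± 1221 (SD, n = 3 each). SHMT2 fell by 1.08 on the log2 scale (SE 0.044, interval -1.18 to -0.99, adjusted p = 1.1e-13, limma), or 2.12-fold.

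MTHFD2 (chr2:74198562-74217565, plus strand), the mitochondrial methylenetetrahydrofolate dehydrogenase and cyclohydrolase, fell further. Its normalized counts were 4734, 4938 and 4790 in the KO libraries and 13359, 12563 and 11834 in the WT libraries. No library came near the other group, and the means were 4821 ± 106 in KO and 12585 ± 763 in WT (SD, n = 3 each). The log2 fold change was -1.38 (SE 0.047, interval -1.48 to -1.28, adjusted p = 6.9e-15, limma), or 2.61-fold lower in KO. Of its exon bases, 1324 (27.2%) are shared with SLC4A5 on the opposite strand, and whether counting used strand was not stated. SLC4A5 itself had 67.6, 71.3 and 66.0 normalized counts in KO libraries and 163, 133 and 125 in WT libraries, far under those of MTHFD2. A further 295 bases (6.06%) are shared with AC006030.1 on the opposite strand, which is not in the deposited table. The effect of either overlap on the MTHFD2 values was not tested.

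MTHFD1L (chr6:150865549-151101887, plus strand) encodes the mitochondrial ligase that releases formate. It had 2251, 2245 and 2297 normalized counts in KO1, KO2 and KO3, and 3519, 3761 and 3657 in WT1, WT2 and WT3. The means were 2264 ± 28.4 in KO and 3646 ± 121 in WT (SD, n = 3 each). All 3 KO libraries lay below all 3 WT libraries, and the log2 fold change was -0.69 (SE 0.046, interval -0.78 to -0.59, adjusted p = 1.4e-10, limma), or 1.61-fold. Of the mitochondrial arm, MTHFD2 fell the most and MTHFD1L the least, and the 3 intervals did not meet. The sum of the arm was 19074 to 19418 normalized counts in KO and 40079 to 43352 in WT.

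The cytosolic counterparts moved the other way. SHMT1 (chr17:18327860-18363563, minus strand), the cytosolic hydroxymethyltransferase, had 1292, 1202 and 1239 normalized counts in KO1, KO2 and KO3, and 934, 875 and 893 in WT1, WT2 and WT3. All KO libraries were above all WT libraries, with means of 1244 ± 45.2 in KO and 901 ± 30.4 in WT (SD, n = 3 each). SHMT1 rose by 0.47 on the log2 scale (SE 0.057, interval 0.35 to 0.59, adjusted p = 8.9e-07, limma), or 1.38-fold.

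MTHFD1 (chr14:64388031-64463457, plus strand) encodes the cytosolic enzyme that joins the ligase, cyclohydrolase and dehydrogenase in a single chain. The KO libraries had 3236, 3363 and 3227 normalized counts and the WT libraries 3010, 2973 and 2960. The difference was small, at 3275 ± 75.7 in KO and 2981 ± 25.8 in WT (SD, n = 3 each), 1.10-fold higher in KO. The log2 fold change was 0.14 (SE 0.044, interval 0.043 to 0.23, adjusted p = 0.012, limma). Without KO2, the highest library, the log2 fold change was close to this at 0.12, but did not pass with limma (adjusted p = 0.061) or with DESeq2 on the recovered reads (adjusted p = 0.082), which left 1 cytosolic gene called higher. With edgeR on the same 5 libraries MTHFD1 passed, at 0.13 (adjusted p = 0.017). On the opposite strand, AL122035.2 shares 756 of its exon bases (8.06%) and ZBTB25 shares 178. AL122035.2 had 99.6, 113 and 139 normalized counts in KO libraries and 95.8, 80.9 and 71.1 in WT libraries. ZBTB25 went the other way, with 356, 379 and 402 in KO libraries and 480, 445 and 418 in WT libraries. The part of these reads in the MTHFD1 values was not tested.

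TYMS (chr18:657604-673578, plus strand), thymidylate synthase, takes a carbon unit from the folate cycle to make the thymine nucleotide of DNA. It had 7601, 8020 and 7647 normalized counts in KO1, KO2 and KO3, against 8532, 8253 and 7799 in WT1, WT2 and WT3. The groups overlapped, since KO2 was above WT3, and the means were 7756 ± 229 in KO and 8195 ± 370 in WT (SD, n = 3 each). The log2 fold change of -0.08 (interval -0.17 to 0.015) did not pass the test (adjusted p = 0.14, limma). It passed without WT3, at -0.11 (adjusted p = 0.023, limma), and was 0.0072 (adjusted p = 0.90) after a trend on the joined exon length of genes was removed. TYMS shares 967 exon bases (39.1%) with ENOSF1 on the opposite strand, which had 5753, 5749 and 5587 normalized counts in KO libraries and 7141, 7282 and 7480 in WT libraries, and the part of these reads in the TYMS values was not tested.

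**Figure D2:**
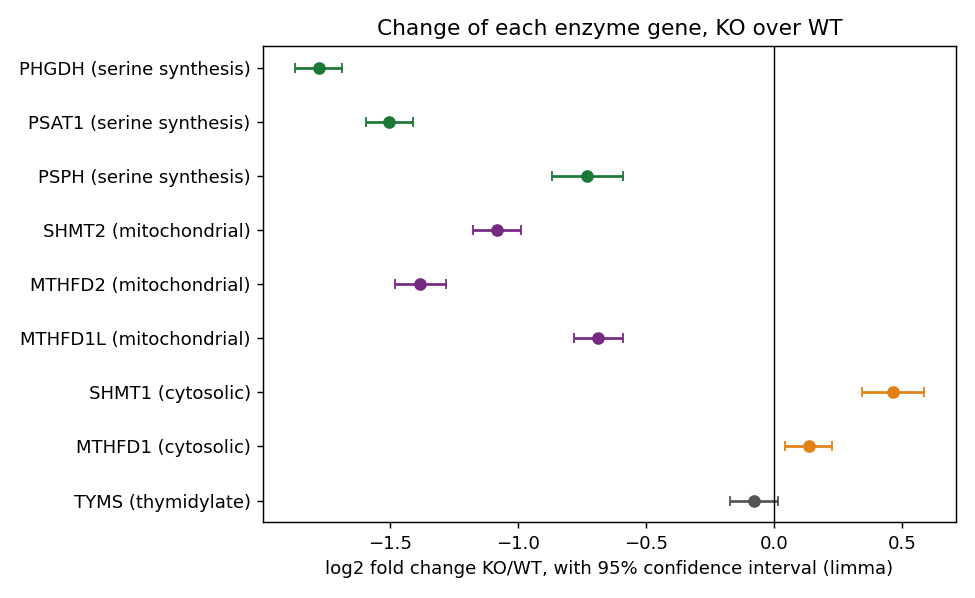
Log2 fold change, KO/WT, of each enzyme gene (dots) with its 95% confidence interval from limma (bars), grouped by role. Serine synthesis and the mitochondrial arm lie between -1.78 and -0.69, the cytosolic genes at 0.47 and 0.14, and the TYMS interval includes 0.

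An exact two-sided permutation test over the 6 libraries gave p = 0.1 for each gene except TYMS (p = 0.2), and 0.1 is the smallest p that 3 libraries against 3 can give. The libraries of a group lay close together, with coefficients of variation of 1.22% to 5.00% in KO and 0.867% to 6.06% in WT. The largest counting error of any enzyme in any library was 4.47%, for PSPH, the enzyme with the fewest reads.

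How the balance between the compartments differed was measured as the ratio of mitochondrial to cytosolic enzyme within each library, which does not depend on how libraries were scaled. A ratio of different genes does not remove differences in coverage along transcripts. In the paper's exon counts, ACTB had more reads in KO than in WT at the end of the transcript and fewer near its start. The part of such a difference in the ratios was not tested. SHMT2/SHMT1 was 9.49, 10.2 and 9.67 in KO1, KO2 and KO3, and 27.5, 30.9 and 27.5 in WT1, WT2 and WT3. The ratio was thus 9.78 ± 0.358 in KO and 28.7 ± 1.95 in WT (SD, n = 3 each), a difference of -1.55 on the log2 scale and 2.93-fold. Both terms took part in this change, since SHMT2 fell and SHMT1 rose.

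MTHFD2/MTHFD1 was 1.46, 1.47 and 1.48 in the KO libraries, against 4.44, 4.23 and 3.998 in the WT libraries. The KO values were almost equal, and the difference was -1.52 on the log2 scale, or 2.86-fold, with means of 1.47 ± 0.011 in KO and 4.22 ± 0.22 in WT (SD, n = 3 each). MTHFD1L/MTHFD1 was 0.692 ± 0.0224 in KO and 1.22 ± 0.049 in WT (SD, n = 3 each), or 1.77-fold lower in KO. These ratios are not corrected for transcript length, so that their change between groups can be read and not which enzyme of a pair was the more abundant. The sum of the 3 mitochondrial enzymes over that of the 2 cytosolic ones was 4.26 ± 0.011 in KO and 10.8 ± 0.433 in WT (SD, n = 3 each), a difference of -1.35 on the log2 scale. KO and WT libraries did not overlap in any of the 4 ratios, each with p = 0.1 (exact two-sided permutation test, 0.1 after adjustment over 4 ratios), the smallest p the design allows.

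**Figure D3:**
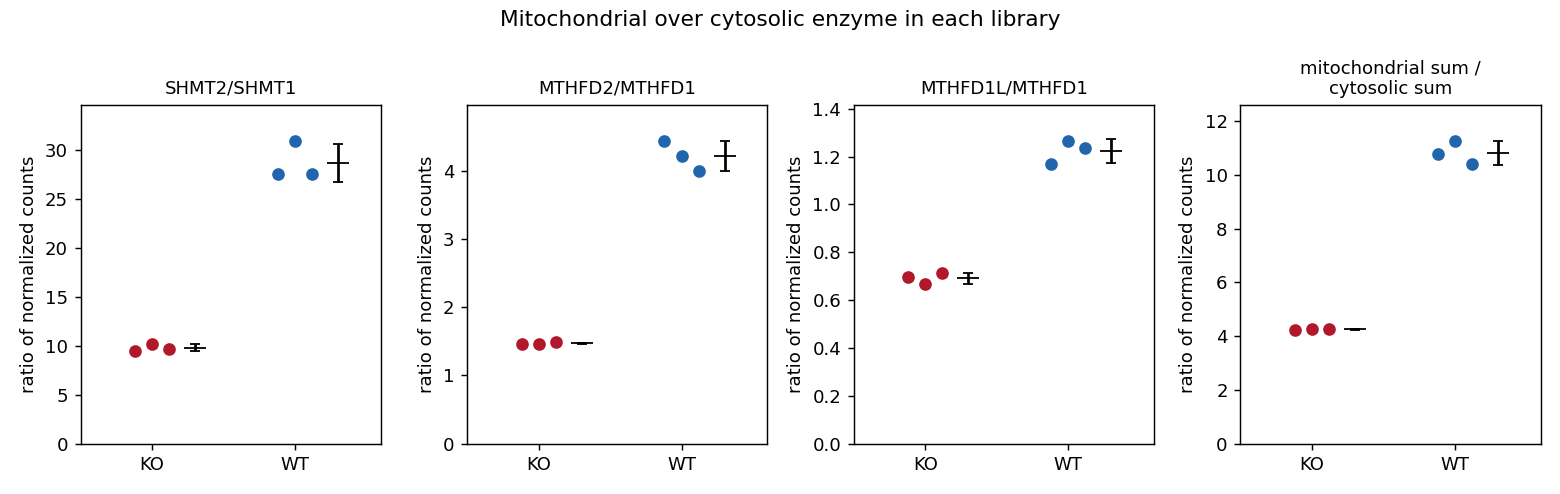
Ratio of normalized counts of mitochondrial to cytosolic enzymes in each library, KO (red) left of WT (blue), with the mean and SD beside the points and y axes from 0. In all 4 panels the KO libraries lie below the WT libraries, at 9.78 against 28.7 for SHMT2/SHMT1 and at 1.47 against 4.22 for MTHFD2/MTHFD1.

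Levels of different genes were compared per kilobase of joined exons (normalized counts per kb). In KO cells the order was TYMS at 3140, SHMT2 at 2513, PSAT1 at 1402, MTHFD2 at 990, PHGDH at 520, MTHFD1L at 451, MTHFD1 at 349, PSPH at 207 and SHMT1 at 171. In WT cells the order was SHMT2 at 5329, PSAT1 at 3981, TYMS at 3318, MTHFD2 at 2584, PHGDH at 1789, MTHFD1L at 726, PSPH at 343, MTHFD1 at 318 and SHMT1 at 124. Per kilobase of joined exons, TYMS thus stood above SHMT2 and PSAT1 in KO cells only, and MTHFD1 stood above PSPH in KO cells and under it in WT cells. The libraries of neighbours in either order did not overlap. The order depends on the length used: with the median length of a gene's protein-coding transcripts, SHMT2 came first in both groups, PSPH came last in KO cells at 769 and SHMT1 last in WT cells at 711. That median was short for some genes, at 780 bases for SHMT2 and 688 for MTHFD1, against 4838 and 9377 of joined exons. A short length raises the value per kilobase, so that neither order can be taken as settled. With the median transcript length neither change of order was seen. TYMS, at 5845 in KO and 6175 in WT, was under SHMT2 and above PSAT1 (1705 and 4840) in both groups. MTHFD1, at 4760 in KO and 4333 in WT, was above PSPH (769 and 1277) in both.

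For each enzyme the genes with the most similar pattern were taken as those with the smallest Euclidean distance between the log2 values of the 6 libraries, each centred on its mean. For PHGDH these were TBL1X, JUND and PLK3, at distances of 0.0618 to 0.0851. For SHMT2 they were TRIM39, SREBF2 and TRIM8, the nearest at 0.0456. For SHMT1 they were DNAJC11, C1orf131 and ZBED1, the nearest at 0.0284. No enzyme was among the 3 nearest genes of another, and with 2 groups the distance mostly reflects a like fold change.

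Beyond the 9 enzymes, the related genes did not move as a block. The counts of this and each later list are to be read against all genes tested, of which 30.3% were called higher and 30.3% lower. Of 10 other mitochondrial folate and glycine cleavage genes, 7 were tested, of which 5 rose, 1 fell and 1 did not pass. The gene that fell was ALDH1L2, the mitochondrial formyltetrahydrofolate dehydrogenase, with 192, 192 and 153 normalized counts in KO libraries and 872, 834 and 764 in WT libraries (log2 fold change -2.20, adjusted p = 3.3e-13, limma). GCSH, the lipoyl carrier protein of the glycine cleavage system, rose to 1981 ± 99.7 in KO, against 879 ± 63.7 in WT (SD, n = 3 each), or 1.17 higher on the log2 scale (adjusted p = 4.5e-12, limma). GLDC, the glycine decarboxylase of the same system, was not tested.

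MTHFD2L, an isoenzyme of MTHFD2, had 592, 700 and 627 normalized counts in KO libraries and 557, 495 and 558 in WT libraries, a rise of 0.25 on the log2 scale (adjusted p = 0.0094, limma) that did not pass without KO2 (0.19, adjusted p = 0.071) or without WT2 (0.19, adjusted p = 0.053). Nor did the rise pass without a variance trend (0.25, adjusted p = 0.057, limma). On 5 libraries it did not pass with edgeR (0.20, adjusted p = 0.051) or DESeq2 (0.18, adjusted p = 0.17). MTHFD2L had a count well under that of MTHFD2 in both groups. The mitochondrial folate carrier SLC25A32 rose by 0.61 (adjusted p = 1.0e-06, limma), with 736 ± 58.2 normalized counts in KO and 482 ± 30.0 in WT (SD, n = 3 each).

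Of the cytosolic folate genes outside the 9 enzymes, 7 of 9 were tested, of which 1 rose, 1 fell and 5 did not pass, and none rose without KO1, without KO2 or without WT3. FPGS, which adds glutamate to folates and so keeps them in the cell, had 5355 ± 164 normalized counts in KO and 5221 ± 229 in WT (SD, n = 3 each) and did not pass (log2 fold change 0.04, interval -0.06 to 0.13, adjusted p = 0.50, limma).

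All but 1 of the 8 genes of purine synthesis, which takes up carbon from formyltetrahydrofolate, rose, and none fell. The share called higher over all genes tested was 30.3%. Their median log2 fold change was 0.30, against -0.01 over all genes. PFAS, the formylglycinamidine synthase, had 3106, 2896 and 3085 normalized counts in KO libraries and 1960, 2195 and 1923 in WT libraries (log2 fold change 0.58, adjusted p = 2.1e-08, limma). PPAT, the committing enzyme of the pathway, rose by 0.43 (adjusted p = 8.4e-07, limma), and ADSL was at 0.09 and did not pass (adjusted p = 0.088, limma), although it passed with TMM scaling (0.11, adjusted p = 0.023), with equal library totals (0.14, adjusted p = 0.0024), with the length trend removed (0.15, adjusted p = 0.0048) and without WT2 (0.11, adjusted p = 0.044).

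The partners of TYMS in nucleotide supply were 6 genes, of which 4 fell and 1 rose. Without WT1 and KO3 2 fell, with equal library totals 3 fell, and with the length trend removed 2 fell and 2 rose. TK1, the thymidine kinase that salvages thymidine, had 1351, 1436 and 1434 normalized counts in KO libraries and 3255, 3572 and 3366 in WT libraries, and fell by 1.27 on the log2 scale (adjusted p = 8.3e-14, limma). The ribonucleotide reductase subunit RRM2 fell by 0.81 on the log2 scale (adjusted p = 6.9e-12, limma). DUT, which makes the substrate of TYMS, rose by 0.20 (adjusted p = 0.00061, limma). Of 17 proliferation genes, 4 rose, 7 fell and 6 did not pass, with a median log2 fold change of -0.08.

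Of 9 carriers of serine and glycine, 7 fell, 1 rose and 1 did not pass, beside 30.3% of all genes called lower and 30.3% higher. Their median log2 fold change was -0.87, against -0.01 over all genes. SLC6A9, a glycine transporter, had 39.3, 34.1 and 44.4 normalized counts in KO libraries and 645, 756 and 724 in WT libraries (log2 fold change -4.14, adjusted p = 1.7e-15, limma). The neutral amino acid carriers SLC38A2 and SLC1A5 fell by 0.94 and 0.87 on the log2 scale (adjusted p = 4.8e-13 and 3.7e-12, limma). SFXN1, the mitochondrial serine carrier, had 2956 ± 88.2 normalized counts in KO and 3135 ± 59.2 in WT (SD, n = 3 each) and did not pass (log2 fold change -0.09, adjusted p = 0.11, limma). The carrier that rose was SFXN2, at 1.05 on the log2 scale (adjusted p = 1.5e-11, limma), a gene named after its values were seen.

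In the methionine cycle and transsulfuration, 3 of 10 tested genes rose, 4 fell and 3 did not pass. CBS, which joins serine to homocysteine, had 68.5, 51.2 and 36.0 normalized counts in KO libraries and 314, 345 and 468 in WT libraries (log2 fold change -2.86, adjusted p = 1.7e-10, limma). The GRCh38 reference holds a near-identical copy of CBS, so that its counts are uncertain. Of 6 other tested genes whose products use serine, 2 fell and 4 did not pass, and the falls were small, at -0.13 for PTDSS1 and -0.30 for SRR. The PTDSS1 call was lost without KO1 (-0.11, adjusted p = 0.11, limma). SRR lost its call without KO2, KO3, WT1 or WT3 (adjusted p = 0.055 to 0.091, limma), and neither gene passed with equal library totals or with the length trend removed, settings under which 0 genes of the list fell and 2 rose.

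The list of ATF4 and stress targets held 14 genes other than the 9 enzymes, and all 14 fell, with a median log2 fold change of -1.77. It included ATF4 itself and was chosen with earlier results of these data known. Of all genes tested, 30.3% were called lower. ATF4 itself had 32831 ± 198 normalized counts in KO and 72597 ± 4214 in WT (SD, n = 3 each), or -1.14 on the log2 scale (adjusted p = 2.3e-13, limma). CHAC1, a glutathione-degrading enzyme induced by ATF4, had 214, 165 and 180 normalized counts in KO libraries and 2562, 2809 and 2485 in WT libraries. MYC, another regulator of serine and folate genes, was higher in KO, at 75991 ± 1043 against 45268 ± 1027 in WT (SD, n = 3 each, log2 fold change 0.75, adjusted p = 4.1e-11, limma). The part of either in the enzyme changes was not tested.

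**Figure D4:**
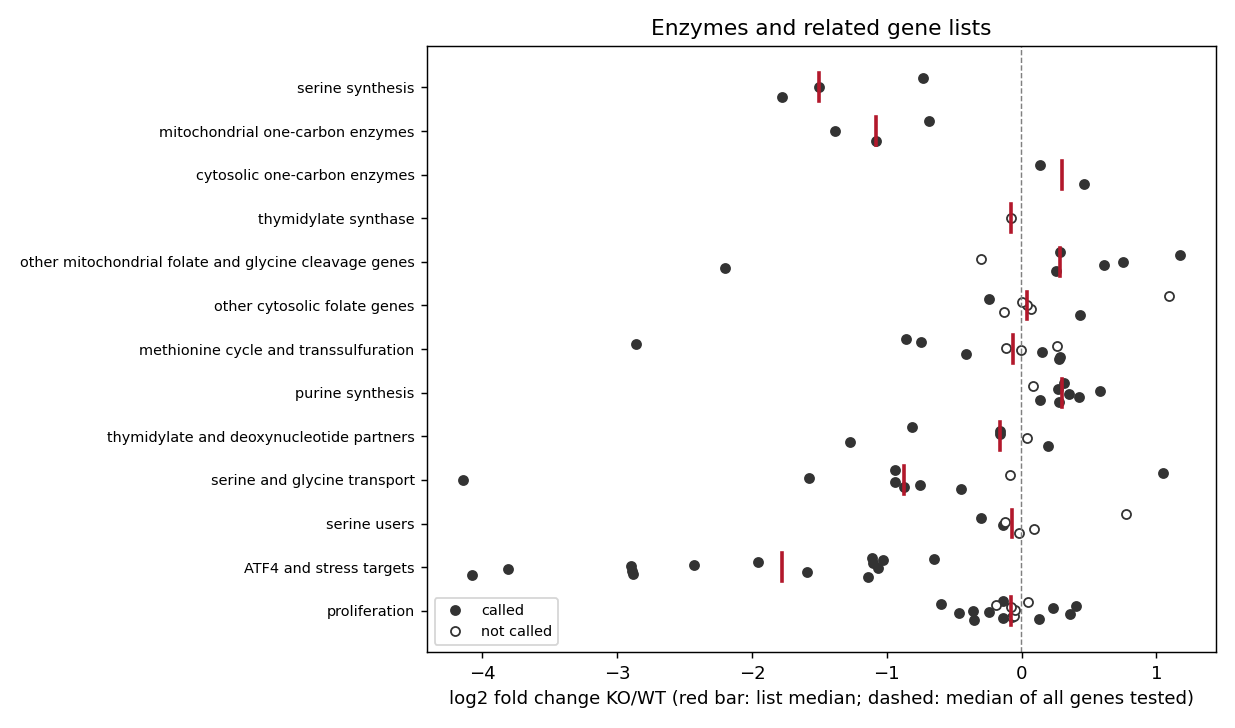
Log2 fold change, KO/WT, of each tested gene in the enzyme groups and the related lists, with filled dots for genes called by limma and open dots for the others. Red bars mark the median of each list and the dashed line the median of all genes tested. The ATF4 list has its median at -1.77, serine and glycine transport at -0.87 and purine synthesis at 0.30.

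The targeted gene, AKIRIN2, had 1613, 1731 and 1651 normalized counts in KO libraries and 2378, 2450 and 2420 in WT libraries, or -0.54 on the log2 scale (adjusted p = 1.3e-08, limma). Markers of immature granulocytes were abundant in all libraries, and their summed counts were 1024230 to 1059590 in KO and 350667 to 370726 in WT, with 6 of 7 genes higher in KO. Late neutrophil markers were higher in KO for 5 of 6 genes, with sums of 1366 to 1473 in KO and 582 to 607 in WT. All 5 eosinophil markers were higher in KO, with sums of 65575 to 67480, against 2823 to 3047 in WT. Of the monocyte markers 2 of 6 rose and 3 fell, and of the T and NK markers 3 of 4 tested fell, with sums of 1353 to 1452 in KO and 3536 to 4133 in WT. No erythroid marker was in the table. The fibroblast and epithelial list had sums of 349 to 889 in KO and of 294 to 5555 in WT, and WT1 held the highest. Without WT1 and KO3, the library of each group with the highest such sum, 6 of the 9 enzymes were still called lower and 2 higher. The part of a shift in cell types in the enzyme values was not tested.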

How the data were processed

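The table deposited by the authors holds normalized signal values, made from the read count of a gene and the size factor of its library. GRCh38, DESeq2, featureCounts, Subread 1.5.2 and Trimmomatic 0.36 are named, with no role, in the submitters' processing notes. An aligner or annotation is not given in the sources used here. Deposited fold changes and p-values of the authors' own comparison were not used. All values of each library were whole multiples of 1 step (tolerance 0.01). Reads recovered in this way, summed over the genes of the deposited table, were 36096459 to 47607520 in KO and 41419318 to 52244122 in WT. Reads outside these genes are not in the sums.

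Groups were compared with limma 3.58.1 (trended variance, two-sided) in R 4.3.3 on log2(normalized count + 1), and p-values were adjusted by Benjamini-Hochberg over 17425 genes that averaged 10 or more. The other 74 genes were left out. The paper's methods name a Student test, and limma makes the same comparison with shared variance. This scale understates the change of low genes. The limma fit was tested on simulated counts. Coordinates and exon lengths are from GENCODE 29 (GRCh38), which matched 17420 genes by identifier.

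Named genes were the enzymes, AKIRIN2, MYC, isoenzymes and direct partners, the 3 nearest genes of each enzyme (mean of at least 100), and of each list the 2 that changed most and the 2 of highest mean count. Members and lists were chosen with earlier results of these data known. Alternatives were TMM scaling, equal totals, pseudocounts 0.5 and 5, a minimum mean of 50 or none, no variance trend, a replicate block, a length trend removed, and libraries left out. Recovered whole-read counts of 5 libraries were tested with edgeR 4.0.16 and DESeq2 1.42.0, a choice made after seeing the data. KO2 was left out of these count tests only because its step of 1.004 was too near 1 for the unit check applied, although its values were whole multiples too. Figures and tables were made with matplotlib 3.10.9, numpy 2.4.6 and pandas 2.3.3 in Python 3.11.15.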

Additional observations from a re-analysis of the deposited data

How the results depend on the processing

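Over 18 alternatives, 158 of 162 log2 fold changes of the 9 enzymes kept their direction and their side of the threshold. The 4 isoenzyme ratios were recomputed under 10 settings, and all 40 values kept their direction and stayed within 1 SD of the main value. The replicate block, among these settings, leaves a ratio unchanged by construction. PHGDH ranged between -1.82 and -1.72 and was called in 18 of 18. The number of enzymes called higher was 1 with DESeq2 on 5 libraries, where MTHFD1 had an adjusted p of 0.082, 2 with edgeR on the same libraries (MTHFD1 adjusted p = 0.017), and 1 to 2 with each library left out in turn (1 without KO2). TYMS was positive after removal of the length trend (0.0072). AHCY, near 0 throughout, was positive with TMM (0.0161), equal totals (0.0523), the length trend removed (0.0615) and without WT1 and KO3 (0.0372), and ranged over -0.0858 to 0.0417 with single libraries left out. Fibroblast genes turned positive without WT1, and with single libraries left out COL1A1 ranged over -1.6287 to 0.1314 and FN1 over -2.1815 to 0.4773, and COL1A1 was 0.1366 without WT1 and KO3. The cause was not tested. The choice of scaling moved the median of all genes by at most 0.057. Replicate numbers did not pair the libraries (correlations of deviations -0.0732, 0.0516 and -0.0754 for numbers 1, 2 and 3), and the replicate block called 5191 genes higher and 5203 lower, with no change in the calls of the enzymes. edgeR and DESeq2 on all 6 libraries were not run. With 3 libraries per group, no exact test could pass 0.05.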
